A study of Mus musculus with 6 samples.

Results

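The 9 genes described here make and load the peptide receptor of the MHC class I pathway: the heavy chains H2-K1 and H2-D1, the light chain B2m, the peptide transporter subunits Tap1 and Tap2, the loading factor Tapbp (tapasin), the immunoproteasome subunits Psmb8 and Psmb9, and Nlrc5, a transcriptional activator of class I genes. They were chosen by name, and all 9 were found among 37315 genes with abundance values and among 19402 genes with allele counts. RNA came from 3 clonal immortalised mouse B cell lines, Abl.2 (female), Abl.3 (male) and Abl.4 (female), each from a 129S1/SvImJ x CAST/EiJ F1 background, so that maternal and paternal transcripts can be counted apart where the copies differ in sequence. All lines were grown with 1% DMSO as the control condition, and live cells were collected on day 2. Each line is 1 clone and was measured in 2 library preparations, so p-values measure the spread between library preparations and a difference between lines is a difference between 3 clones. Each library held 18362319 to 26881211 allelic counts. All 10 B lineage markers examined were at 1 TPM (length-scaled transcript abundance) or more in every library.

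MHC class I molecules display short peptides from inside the cell to CD8 T cells. The proteasome cuts proteins into peptides, the Tap1 and Tap2 transporter carries them into the endoplasmic reticulum, and tapasin holds an empty heavy chain with B2m next to the transporter until a peptide binds. In lymphocytes Nlrc5, NF-kappaB and interferon-regulated factors act on the promoters of these genes, and the immunoproteasome subunits Psmb8 and Psmb9 take the place of the constitutive subunits Psmb5 and Psmb6.

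In all, 7 of the genes lie in the MHC on chromosome 17 (authors' coordinates; 98.7% of 35412 gene models start at the GRCm38 position of GENCODE M21). In order of position these are Tapbp (33915899 to 33929292), H2-K1 (33996017 to 34000333), Psmb9 (34181988 to 34187764), Tap1 (34187553 to 34197225), Psmb8 (34197721 to 34201454), Tap2 (34203527 to 34216321) and H2-D1 (35262730 to 35267499), which together span 1352 kb. B2m lies on chromosome 2 (122147686 to 122153083) and Nlrc5 on chromosome 8 (94434356 to 94527272). The gene models of Psmb9 and Tap1 run head to head on opposite strands and overlap by 212 bases. The models of Psmb9 and Tap1 overlap in GENCODE M21 as well, while the size of 212 bases is from the authors' coordinates. The lower coordinate of Psmb9, which differed in GENCODE M21, is its end away from Tap1. Counting by strand is not given in the sources used here, so reads from that overlap, and from the antisense models over Tap2, Psmb8 and Tapbp, cannot be assigned to a strand.

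Promoter windows from RefSeq (GRCm38.p6; 250 bases before to 50 bases after the start) matched 7 of the 9 genes. The H2-K1, H2-D1, B2m and Tap1 windows are shown because the results below turn on the heavy and light chains and on the start region that Tap1 shares with Psmb9. Capitals mark matches on either strand to a kappaB-like motif (GGGA, any 4 bases, CC), a CCAAT box (CCAAT) and an ISRE-like motif (GAAA, any 2 bases, GAAA), the last being the pattern of an interferon-stimulated response element. They lie at chr17:34000298-34000597 (minus strand), chr17:35262844-35263143 (plus), chr2:122147437-122147736 (plus) and chr17:34187306-34187605 (plus).
H2-K1: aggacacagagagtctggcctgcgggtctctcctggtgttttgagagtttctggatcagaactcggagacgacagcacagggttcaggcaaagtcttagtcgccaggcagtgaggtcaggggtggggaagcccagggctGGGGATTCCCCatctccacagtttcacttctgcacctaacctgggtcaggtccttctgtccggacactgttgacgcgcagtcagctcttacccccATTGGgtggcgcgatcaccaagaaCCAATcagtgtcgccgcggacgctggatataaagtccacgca
H2-D1: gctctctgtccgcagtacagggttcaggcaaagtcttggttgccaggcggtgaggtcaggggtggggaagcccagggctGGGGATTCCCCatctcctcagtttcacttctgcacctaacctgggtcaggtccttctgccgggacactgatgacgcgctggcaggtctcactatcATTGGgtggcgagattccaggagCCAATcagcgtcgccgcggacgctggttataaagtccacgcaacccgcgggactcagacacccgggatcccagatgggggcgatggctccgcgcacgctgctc
B2m: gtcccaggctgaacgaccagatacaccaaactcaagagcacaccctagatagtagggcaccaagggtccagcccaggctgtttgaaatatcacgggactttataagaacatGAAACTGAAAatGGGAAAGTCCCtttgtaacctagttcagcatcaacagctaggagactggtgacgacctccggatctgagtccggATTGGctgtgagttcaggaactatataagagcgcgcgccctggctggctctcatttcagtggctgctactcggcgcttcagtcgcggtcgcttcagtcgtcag
Tap1: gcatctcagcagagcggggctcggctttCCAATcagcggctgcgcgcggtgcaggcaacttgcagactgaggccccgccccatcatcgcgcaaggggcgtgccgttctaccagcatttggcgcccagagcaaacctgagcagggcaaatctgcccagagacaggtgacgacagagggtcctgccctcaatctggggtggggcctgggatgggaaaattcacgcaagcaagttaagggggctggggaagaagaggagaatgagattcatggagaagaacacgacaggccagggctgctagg
The H2-K1 and H2-D1 windows share an identical run of 47 bases that contains the kappaB-like match, which fits the letters on both strands and so counts as 2 overlapping matches. B2m also carries a kappaB-like match, and next to it the only ISRE-like match among the windows. Of 32851 promoters of this length, 20.7% hold a kappaB-like match, 37.4% a CCAAT box and 3.44% an ISRE-like match. The Tap1 window shares 275 of its 300 bases with the Psmb9 window on the other strand and holds a CCAAT box but no kappaB-like or ISRE-like match. A GAS-like motif (TTCNNNGAA, in 8.30% of promoters) was found only in the Psmb8 window among those matched, and the CRE letters TGACGTCA (1.79% of promoters) in none.

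H2-D1, B2m and H2-K1 were among the 50 most abundant transcripts of these cells by mean TPM, at ranks 37, 47 and 50. Psmb8 followed at rank 148, then Psmb9, Tapbp, Tap1 and Tap2 at ranks 534 to 1175, and Nlrc5 stood far lower, at rank 5021. The order of the levels differed a little between lines. In Abl.2 the libraries of H2-D1, B2m and H2-K1 overlapped, so the order of these 3 was not resolved, whereas in Abl.3 the libraries of H2-D1, H2-K1 and B2m fell in that order without overlap. TPM is scaled for transcript length, so these levels can be set against one another.

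**Figure D1:**
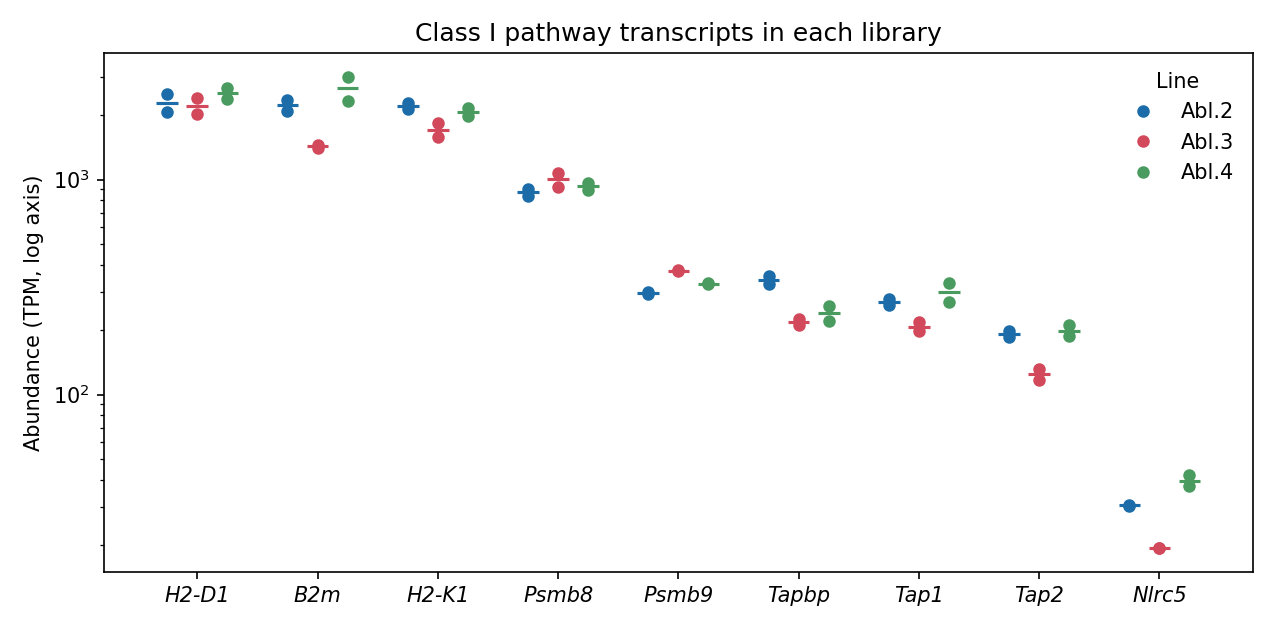
Abundance of the 9 genes (TPM, log axis) in each of 6 libraries. Points are libraries, bars the mean of 2 libraries, and colours the lines; Nlrc5, Tap2 and B2m are lowest in Abl.3, and Psmb9 is highest there.

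Between the lines, the transcripts of Nlrc5 and the transporter were lowest in Abl.3, while the immunoproteasome subunit Psmb9 was highest in Abl.3 and Tapbp was highest in Abl.2. The light chain B2m was lowest in Abl.3 by TPM but not on summed allelic counts, where it was higher in Abl.3 than in Abl.2 (edgeR log2 -0.44 in Abl.2 against Abl.3, adjusted p = 0.046). In Abl.2 against Abl.3, 7 of the 9 genes passed an adjusted p of 0.05 (limma on log2(TPM + 1), Benjamini-Hochberg over 11003 genes): 6 were higher in Abl.2 and 1, Psmb9, was lower. On summed allelic counts (edgeR) the balance was another, with 3 higher (Tap2, Tapbp and Nlrc5) and 5 lower (H2-K1, H2-D1, B2m, Psmb8 and Psmb9) in Abl.2, where 3663 of all genes passed and 52.4% of these were higher in Abl.2. By TPM 39.8% of all genes passed in that comparison: 25.9% of all genes were higher and 14.0% lower in Abl.2. Such shares count differences beyond the spread between library preparations, whatever their size. In Abl.3 against Abl.4, 5 of 9 passed, 4 lower and 1 higher in Abl.3, against 38.1% of all genes (26.8% lower and 11.3% higher). On summed allelic counts Tap1, Tap2 and Nlrc5 passed as lower and Psmb8 and Psmb9 as higher in Abl.3. In that fit 3243 of all genes passed, 46.7% of them higher in Abl.3. Under quantile normalisation H2-K1, B2m, Tap1, Tap2 and Nlrc5 passed, all lower in Abl.3, among 3663 of all genes, of which 52.0% were higher. In Abl.2 against Abl.4 only Tapbp and Nlrc5 passed by TPM, 2 of 9 against 33.5% of all genes. On summed allelic counts H2-K1 passed there as well, lower in Abl.2 (edgeR log2 -0.33, adjusted p = 0.026). The median log2 difference over the 9 genes was 0.38, -0.28 and -0.14 in Abl.2 against Abl.3, Abl.3 against Abl.4 and Abl.2 against Abl.4, and over all tested genes 0.10, -0.15 and -0.03. The 3 comparisons share their libraries in pairs and are not independent.

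By TPM Nlrc5 showed the widest range between lines. Under quantile normalisation B2m ranged wider (Abl.3 against Abl.4 log2 -0.952, and -0.795 for Nlrc5). The level of Nlrc5 was 30.7 and 30.5 TPM in the Abl.2 libraries, 19.3 and 19.3 in those of Abl.3, and 37.6 and 42.1 in those of Abl.4. The libraries of the 3 lines did not overlap, with Abl.3 low and Abl.4 high. Abl.4 stood 2.06-fold above Abl.3 (log2 difference of Abl.3 against Abl.4 -1.01, SE 0.094, limma adjusted p = 0.00051), and Abl.2 stood 1.59-fold above Abl.3 (log2 0.64, SE 0.094, adjusted p = 0.0027). Both of these calls held when any of the 6 libraries was left out. The smaller difference of Abl.2 against Abl.4 (log2 -0.37, SE 0.094, limma adjusted p = 0.026) was lost in 5 of 6 fits that left out a library, the exception being Abl.4 replicate 1, with log2 values from -0.45 to -0.29 and adjusted p up to 0.12.

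Tap2 followed the same order for Abl.3. Its level was 198 and 186 TPM in the Abl.2 libraries, 132 and 117 in those of Abl.3, and 210 and 187 in those of Abl.4. Abl.3 was low, and the libraries of Abl.2 and Abl.4 overlapped. Tap2 was 1.54-fold higher in Abl.2 than in Abl.3 (log2 0.62, SE 0.096, limma adjusted p = 0.0033) and 1.59-fold higher in Abl.4 than in Abl.3 (Abl.3 against Abl.4 log2 -0.67, SE 0.096, adjusted p = 0.0030), and neither call was lost when a library was left out.

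Tap1, the other subunit of the transporter, was at 277 and 262 TPM in the Abl.2 libraries, 217 and 198 in those of Abl.3, and 329 and 270 in those of Abl.4. Abl.3 was again low, without overlap with either line. The log2 difference was 0.38 (SE 0.11, limma adjusted p = 0.035) in Abl.2 against Abl.3 and -0.52 (SE 0.11, adjusted p = 0.012) in Abl.3 against Abl.4. The first call was lost without either Abl.2 library or either Abl.3 library (log2 0.31 to 0.44, adjusted p up to 0.17), and the second without Abl.3 replicate 2 (log2 -0.46, adjusted p = 0.078). On summed allelic counts the first difference was smaller and did not pass (edgeR log2 0.22, adjusted p = 0.083). The ratio of Tap1 to Tap2 transcripts was 1.40 ± 0.0060 for Abl.2, 1.67 ± 0.030 for Abl.3 and 1.51 ± 0.084 for Abl.4 (SD, n = 2), so that Tap2 fell further below Tap1 in Abl.3.

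Tapbp, which bridges the transporter and the empty heavy chain, had another pattern. It was at 356 and 328 TPM in the Abl.2 libraries, 225 and 210 in those of Abl.3, and 258 and 219 in those of Abl.4. Abl.2 was high, and the libraries of Abl.3 and Abl.4 overlapped. Tapbp was 1.58-fold higher in Abl.2 than in Abl.3 (log2 0.65, SE 0.10, limma adjusted p = 0.0032) and 1.44-fold higher than in Abl.4 (log2 0.52, SE 0.10, adjusted p = 0.0089). Without Abl.2 replicate 1 the call against Abl.4 was lost (log2 0.46, limma adjusted p = 0.068). Of its 50-base stretches, 23.2% also occur in other gene models, most of them in the antisense model Gm19412, so its level is uncertain to the extent that the authors' counting split those reads. The same limit applies to Psmb8 and Tap2. Of their stretches 11.9% and 11.6% are shared, most of them with the opposite-strand models Gm20496 and Gm15821.

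Psmb9 moved against its head-to-head neighbour Tap1 in the comparisons with Abl.3. It was at 293 and 300 TPM in the Abl.2 libraries, 381 and 375 in those of Abl.3, and 329 and 325 in those of Abl.4. The libraries of the 3 lines did not overlap, with Abl.3 high and Abl.2 low. Psmb9 was 1.27-fold higher in Abl.3 than in Abl.2 (Abl.2 against Abl.3 log2 -0.35, SE 0.064, limma adjusted p = 0.0069), in the same comparison in which Tap1 was lower in Abl.3. Without Abl.2 replicate 1 the adjusted p was 0.056 (log2 -0.33). The difference of Abl.3 against Abl.4 (log2 0.21, SE 0.064, limma adjusted p = 0.046) was lost in each of the 6 fits that left out a library (adjusted p 0.069 to 0.17) and under quantile normalisation (log2 0.11, adjusted p = 0.21).
The ratio of Psmb9 to Tap1 transcripts was 1.06 and 1.15 in the Abl.2 libraries, 1.76 and 1.89 in those of Abl.3, and 1.002 and 1.204 in those of Abl.4. Both Abl.3 libraries lay above all others, although the 2 genes share most of their promoter windows. In Abl.2 against Abl.4 neither gene passed, and the log2 difference was -0.14 for Psmb9 and -0.15 for Tap1.

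Psmb8, which lies between Tap1 and Tap2, was at 908 and 841 TPM in the Abl.2 libraries, 1075 and 927 in those of Abl.3, and 965 and 893 in those of Abl.4. By TPM with line as the only term it passed in no pair of lines (limma adjusted p 0.17, 0.53 and 0.43). With a replicate block it passed in Abl.2 against Abl.3 (log2 -0.19, limma adjusted p = 0.033). On summed allelic counts it passed as higher in Abl.3 both in Abl.2 against Abl.3 (edgeR log2 -0.44, adjusted p = 0.0016) and in Abl.3 against Abl.4 (0.24, adjusted p = 0.038). Psmb8 and Psmb9 were set against the constitutive subunits whose place they take. The ratio of Psmb8 to Psmb5 was 2.84 ± 0.061 for Abl.2, 3.80 ± 0.10 for Abl.3 and 4.22 ± 0.74 for Abl.4, and that of Psmb9 to Psmb6 was 0.294 ± 0.010, 0.363 ± 0.0094 and 0.423 ± 0.042 (SD, n = 2). Psmb8 thus exceeded Psmb5 in every library whereas Psmb9 stayed below Psmb6, and both ratios were lowest in Abl.2. The ratio of Psmb10, the remaining immunoproteasome subunit, to its constitutive counterpart Psmb7 was 1.16 ± 0.100, 1.06 ± 0.011 and 1.16 ± 0.22 for Abl.2, Abl.3 and Abl.4 and did not share that order. The constitutive subunits differed between lines as well, so the ratios move with them. Psmb5 was at means of 308, 263 and 223 TPM in Abl.2, Abl.3 and Abl.4, and Psmb6 at 1008, 1041 and 778. Both were lowest in Abl.4 and passed as higher in Abl.2 than in Abl.4 (limma adjusted p = 0.016 and 0.022). These ratios were not tested.

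**Figure D2:**
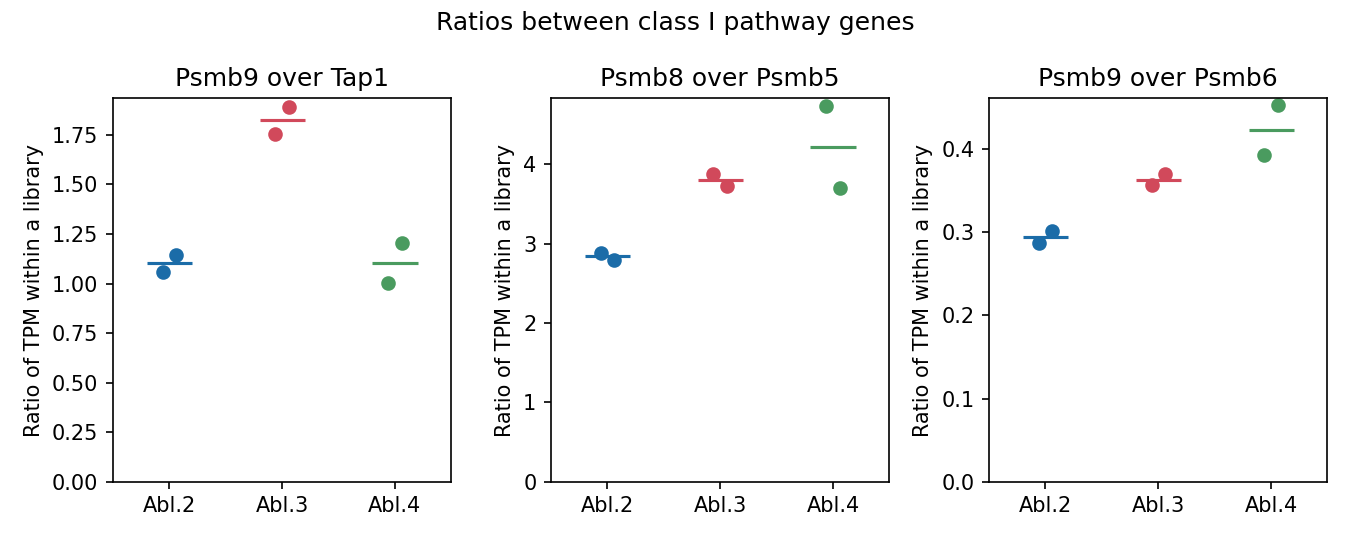
Ratio of TPM values within a library for Psmb9 over Tap1, Psmb8 over Psmb5 and Psmb9 over Psmb6 (linear axes from 0). Points are libraries and lines the mean of 2; the Psmb9 to Tap1 ratio is 1.76 and 1.89 in Abl.3 against 1.002 to 1.204 elsewhere.

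For the heavy chains and B2m the direction depended on which table was used. By TPM, B2m was at 2083 and 2350 in the Abl.2 libraries, 1403 and 1452 in those of Abl.3, and 2321 and 3009 in those of Abl.4, with Abl.3 low and the other lines overlapping. The log2 difference was 0.63 (SE 0.13, limma adjusted p = 0.011) in Abl.2 against Abl.3 and -0.89 (SE 0.13, adjusted p = 0.0035) in Abl.3 against Abl.4, and it had the opposite sign on the summed maternal and paternal counts (edgeR log2 -0.44, adjusted p = 0.046, and 0.18, adjusted p = 0.39). The first of these calls was lost without Abl.2 replicate 2 (log2 0.55, limma adjusted p = 0.084), Abl.3 replicate 1 (0.61, 0.068) or Abl.3 replicate 2 (0.66, 0.057).

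H2-K1 was at 2273 and 2120 TPM in the Abl.2 libraries, 1824 and 1579 in those of Abl.3, and 2142 and 1969 in those of Abl.4. Abl.3 was low without overlap with the other lines. By TPM the difference of Abl.2 against Abl.3 was log2 0.37 (SE 0.098, limma adjusted p = 0.025), and on summed allelic counts it was -0.39 (edgeR adjusted p = 0.010). The call on TPM was also lost without either Abl.2 library or Abl.3 replicate 2 (log2 0.27 to 0.42, limma adjusted p 0.0855 to 0.15) and without a filter on low values (adjusted p = 0.081). In Abl.3 against Abl.4 H2-K1 did not pass (log2 -0.28, limma adjusted p = 0.067) but passed under quantile normalisation (-0.40, 0.035) and with a replicate block (-0.28, 0.011). H2-D1 was at 2487 and 2068 TPM in the Abl.2 libraries, 2392 and 2012 in those of Abl.3, and 2667 and 2356 in those of Abl.4. Its libraries overlapped between all lines and it passed in no pair by TPM without a replicate block (limma adjusted p 0.28 to 0.80). With the block it passed in Abl.3 against Abl.4 (log2 -0.19, limma adjusted p = 0.031), while summed allelic counts put it lower in Abl.2 than in Abl.3 (edgeR log2 -0.48, adjusted p = 0.0040).

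The allelic totals of these genes did not scale with the library. H2-K1 had 70317 to 72644 allelic counts in every library, a 1.03-fold range, and H2-D1 had 38215 to 42302, a 1.11-fold range, although the library totals ranged 1.46-fold. Between the 2 Abl.2 libraries the total of all genes rose 1.18-fold in replicate 2, while the counts of H2-K1, H2-D1 and B2m stood at 0.988, 0.973 and 0.769 of replicate 1. Psmb9 and Psmb8, by contrast, rose 1.23-fold between the same libraries. Over the 54 genes averaging 1500 TPM or more the median log2 difference between those libraries was -0.18 in allelic counts scaled to the library total and -0.02 in TPM, against 0.01 and -0.01 over 4156 genes at 20 to 200 TPM. Between lines the medians of the 54 genes in allelic counts and TPM were -0.36 and -0.09 in Abl.2 against Abl.3. They were -0.25 and 0.08 in Abl.2 against Abl.4, and 0.14 and 0.13 in Abl.3 against Abl.4. Allelic counts and TPM had opposite signs for 31.5%, 50% and 20.4% of the 54 genes in that order. Scaling divides the H2-K1 and H2-D1 counts by the library total, so their scaled values move with that total as well. Raw H2-D1 counts also differed between lines, at 42302 and 42107 in the Abl.3 libraries and 38393 and 38215 in those of Abl.4. Whether the allele counting limited the depth per position is not given in the sources used here, and the part of this in the opposite signs was not tested. The differences of Nlrc5, Tap2, Tapbp and Psmb9 in Abl.2 against Abl.3, and of Nlrc5, Tap1 and Tap2 in Abl.3 against Abl.4, kept their direction and their call in summed allelic counts. In bulk RNA a lower content per cell and fewer cells with a transcript cannot be told apart.

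**Figure D3:**
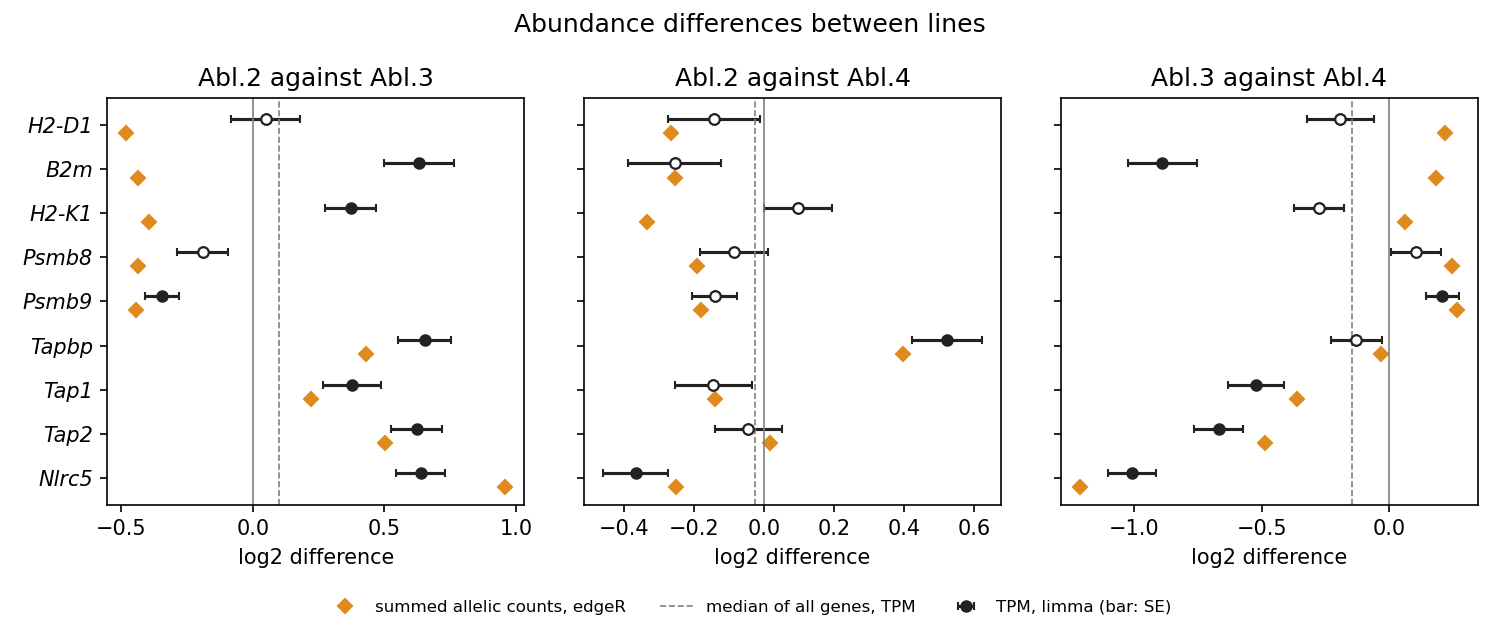
Log2 difference in abundance between lines for the 9 genes. Circles are log2(TPM + 1) differences from limma with SE bars (filled where the adjusted p is below 0.05), diamonds are edgeR differences of summed allelic counts, and the dashed line is the median of all tested genes; the circles and diamonds of H2-K1, H2-D1 and B2m fall on opposite sides of 0 in Abl.2 against Abl.3 and in Abl.3 against Abl.4.

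**Figure D4:**
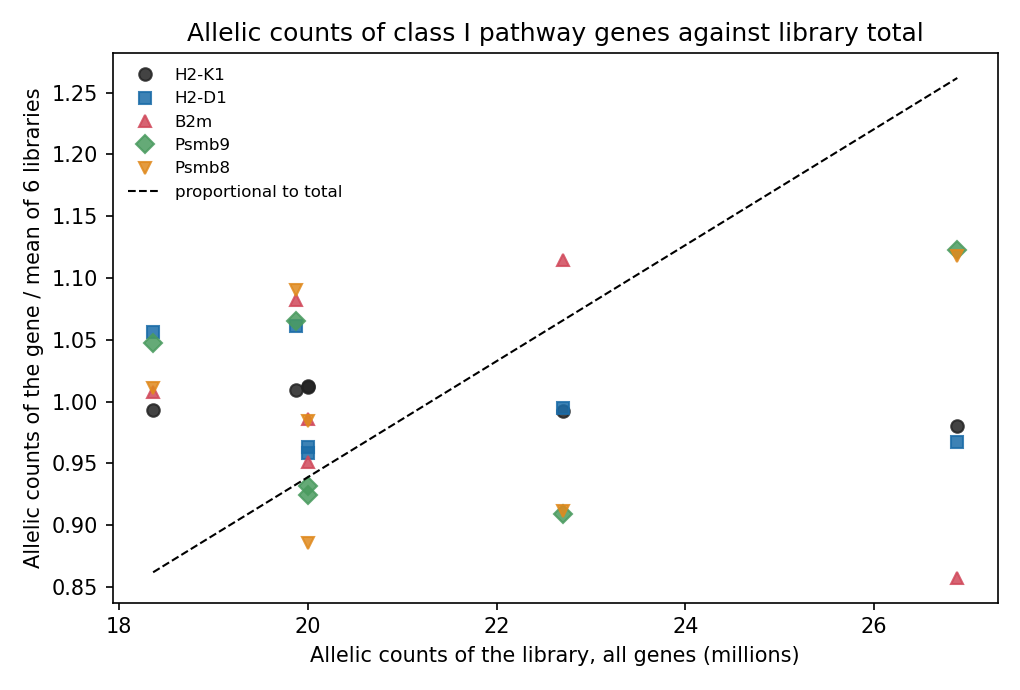
Allelic counts of 5 of the genes in each library, divided by the gene's mean over 6 libraries, against the allelic counts of all genes in that library. The dashed line is proportionality; H2-K1 and H2-D1 stay nearly level while the library total ranges 1.46-fold.

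Both parental copies of all 9 genes were expressed in every line, at maternal shares between 0.45 and 0.69. Allelic depth was high, from 1714 counts for Nlrc5 in an Abl.3 library to 72644 for H2-K1, and intervals cover counting error only, since PCR copies could not be told apart. Against equal expression (edgeR quasi-likelihood test on allele counts, adjusted over 8702 genes), 6 of 9 genes passed in Abl.2, as many in Abl.3, and 7 in the Abl.4 line, and the test passed 49.1%, 45.1% and 39.9% of all genes in these lines. In Abl.2, 4 were higher from the maternal and 2 from the paternal copy (24.7% and 24.4% of all genes). Against the library allele totals in place of equality, 8 passed in Abl.2, 4 maternal and 4 paternal, and so did 4606 of all 8702 genes: Tap2 was gained (log2 -0.19, edgeR adjusted p = 0.010) and Psmb8 was gained on the paternal side (-0.11, 0.029), while H2-K1 moved from 0.22 to 0.099, Tap1 from 0.29 to 0.17, Nlrc5 from 0.30 to 0.18, Tapbp from -0.14 to -0.26 and Psmb9 from -0.11 to -0.23. In Abl.3 all 6 were maternal (22.5% of all genes) and none paternal (22.6%). In Abl.4, 5 were maternal (19.2%) and 2 paternal (20.7%). Fewer of the 9 genes, and fewer of all genes, passed in each line when either of its own libraries was left out. Among the losses were Nlrc5 in Abl.2 without replicate 2 (log2 0.23) and Tap2 in Abl.4 without replicate 2 (0.16).

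H2-D1 had the most unequal copies of the set in every line. Its maternal share was 0.623 and 0.626 in the Abl.2 libraries, 0.686 and 0.685 in those of Abl.3, and 0.621 and 0.616 in those of Abl.4, where the 95% Wilson intervals are within 0.005 of each value. The log2 ratio of maternal to paternal counts was 0.74, 1.12 and 0.70 in Abl.2, Abl.3 and Abl.4 (SE 0.024 to 0.025, edgeR adjusted p of 4.8e-09 or lower). H2-K1, the other heavy chain, was closer to equality, at mean shares of 0.538 ± 0.0059, 0.551 ± 0.0042 and 0.522 ± 0.0068 (SD, n = 2), and passed in each line. Tap1 was likewise maternal in all lines, at 0.550 ± 0.0019, 0.576 ± 0.026 and 0.556 ± 0.0039. These 3 genes passed in every line also when any of the libraries was left out. B2m was near equality, at 0.505 ± 0.0074, 0.488 ± 0.0016 and 0.492 ± 0.023, and passed in none.

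The shares of H2-K1 and H2-D1 rest on reads that near-identical heavy chain genes can also take. Of the 50-base stretches of H2-K1, 9.63% occur in other gene models, H2-Q10 first among them, and of those of H2-D1 12.8%, H2-Q1 first. H2-Q10 was at 0 to 0.03 TPM in every library but had 511 to 866 allelic counts, of which at most 1 in a library was maternal. H2-Q1 (1.22 to 2.94 TPM) and H2-Q4 (22.5 to 27.2 TPM) had maternal shares of 0 to 0.0625 and 0.023 to 0.055, whereas H2-Q6 had shares of 0.712 to 0.813. Whether reads of one parental heavy chain were counted at these genes was not tested, so the H2-K1 and H2-D1 shares are uncertain.

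Psmb9 and Tapbp leaned to different copies in different lines. The maternal share of Psmb9 was 0.474 and 0.487 in the Abl.2 libraries, 0.521 and 0.519 in those of Abl.3, and 0.455 and 0.445 in those of Abl.4. It was paternal in Abl.2 and Abl.4 and maternal in Abl.3, with edgeR log2 ratios of -0.11 (adjusted p = 0.013), -0.29 (3.3e-05) and 0.12 (0.012). Tapbp showed the same order, with mean shares of 0.475 ± 0.00087, 0.471 ± 0.0046 and 0.530 ± 0.0036 in Abl.2, Abl.4 and Abl.3. The imbalance of Tapbp was lost in Abl.2 and Abl.3 without either library of the line and in Abl.4 without replicate 1 (adjusted p 0.070 to 0.20), and that of Psmb9 in Abl.3 without either library and in Abl.2 without replicate 1 (0.084 to 0.24). Psmb8 was near equality in Abl.2 (0.502 ± 0.0065) and Abl.4 (0.494 ± 0.0047) and maternal in Abl.3 (0.550 ± 0.0029, edgeR adjusted p = 9.7e-05).

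**Figure D5:**
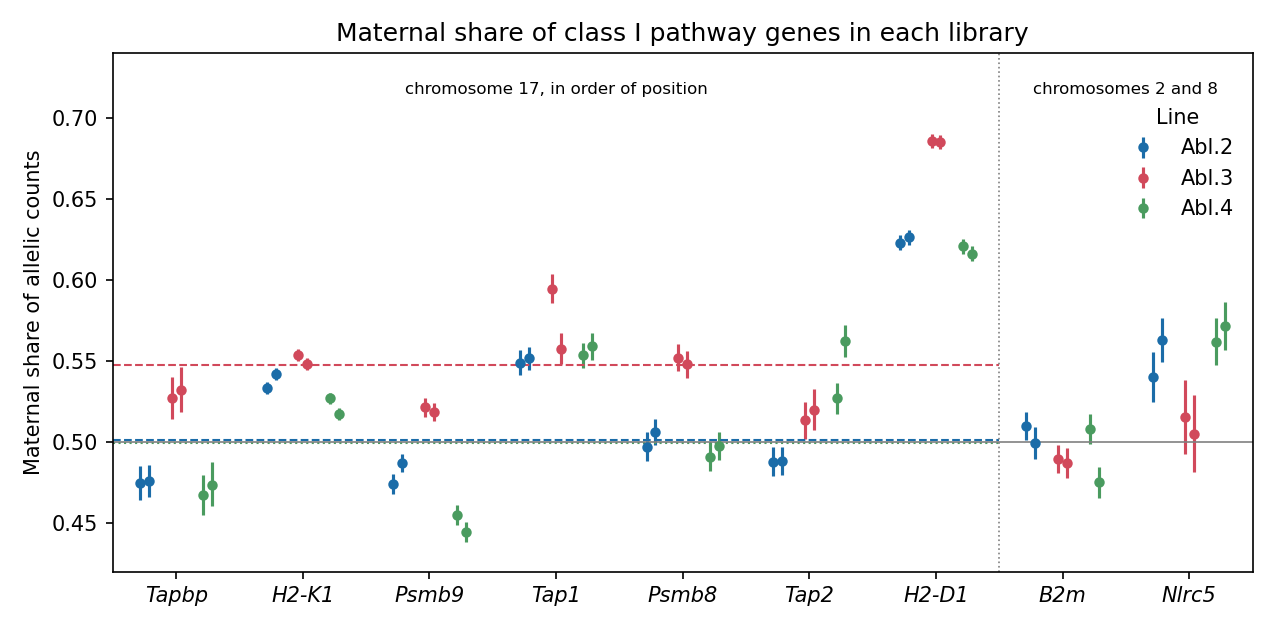
Maternal share of allelic counts in each library, with 95% Wilson intervals (counting error only), for the 7 chromosome 17 genes in order of position and for B2m and Nlrc5. Dashed and dotted lines in the colour of each line mark the median share of the other chromosome 17 genes, near 0.50 in Abl.2 and Abl.4 and 0.548 in Abl.3; Tapbp, Psmb9, Psmb8 and H2-D1 are highest in Abl.3.

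The difference in allele ratio between lines was tested directly. In Abl.2 against Abl.3, H2-D1, Tapbp, Psmb8 and Psmb9 had a lower maternal share in Abl.2, 4 of 9 against 28.4% of all genes (13.0% lower and 15.4% higher in Abl.2). In Abl.3 against Abl.4, H2-D1, Psmb9, Tapbp, Psmb8 and H2-K1 had a higher maternal share in Abl.3 and Nlrc5 a lower one, 6 of 9 against 16.5% of all genes (8.53% higher and 7.93% lower). In Abl.2 against Abl.4, Tap2 was lower and Psmb9 higher in Abl.2, 2 of 9 against 22.3% (9.61% lower, 12.7% higher).
The shift in Abl.3 was shared by the chromosome. Over 459 other tested genes of chromosome 17 the median maternal share was 0.502 ± 0.00032 for Abl.2, 0.548 ± 0.0021 for Abl.3 and 0.4998 ± 0.0039 for Abl.4 (SD, n = 2). The median log2 allele difference of these genes was -0.29 in Abl.2 against Abl.3 and 0.28 in Abl.3 against Abl.4, beside -0.28 and 0.32 for Psmb8, -0.31 and 0.34 for Tapbp, -0.23 and 0.41 for Psmb9, -0.39 and 0.43 for H2-D1, -0.08 and 0.17 for H2-K1, -0.15 and 0.12 for Tap1, and -0.16 and -0.16 for Tap2. H2-K1, Tap1 and Tap2 did not pass in Abl.2 against Abl.3. The Tap2 difference in Abl.3 against Abl.4 had the sign opposite to the chromosome median and did not pass (edgeR adjusted p = 0.19), except without Abl.4 replicate 1 (-0.27, 0.027). Over the libraries left out Tap1 ran from -0.26 (without Abl.3 replicate 2) to -0.04 in Abl.2 against Abl.3, and from 0.008 to 0.23 in Abl.3 against Abl.4. The H2-K1 difference in Abl.3 against Abl.4 was lost without Abl.3 replicate 1 (log2 0.15, edgeR adjusted p = 0.071). In Abl.3 against Abl.4, 83.7% of the chromosome 17 genes had a higher share in Abl.3. Of these 459 genes, 27.2% passed in Abl.2 against Abl.3, 11.3% in Abl.2 against Abl.4 and 24.2% in Abl.3 against Abl.4. Median shares on chromosomes 2 and 8, which hold B2m and Nlrc5, were 0.497 to 0.503 in all lines. The part of the chromosome in the shift of the class I genes was not tested.

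Tap2 and Nlrc5 had other orders of the lines. The maternal share of Tap2 was 0.488 and 0.488 in the Abl.2 libraries, 0.513 and 0.520 in those of Abl.3, and 0.527 and 0.563 in those of Abl.4, highest in Abl.4 (Abl.2 against Abl.4 log2 -0.33, SE 0.072, edgeR adjusted p = 0.0064). Psmb9, the other gene that passed in that pair (log2 0.18, edgeR adjusted p = 0.012), was lost without Abl.2 replicate 2 (0.14, 0.12) or Abl.4 replicate 2 (0.15, 0.066). Nlrc5 was at 0.540 and 0.563 in the Abl.2 libraries, 0.516 and 0.505 in those of Abl.3, and 0.562 and 0.572 in those of Abl.4, nearest to equality in Abl.3. The difference of Abl.2 against Abl.3 did not pass (log2 0.24, edgeR adjusted p = 0.10). The allelic difference of Nlrc5 between Abl.3 and Abl.4 (log2 -0.33, SE 0.097, edgeR adjusted p = 0.046) was lost whichever of the 6 libraries was left out (adjusted p 0.069 to 0.17) and with DESeq2 (0.0998). Cpne2, the nearest tested gene after Nlrc5 at 5.72 kb, had shares of 0.746, 0.446 and 0.525 in Abl.2, Abl.3 and Abl.4, and Herpud1 on the other side had 0.531, 0.491 and 0.530.

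Neighbouring genes in the MHC ranged widely. Within 200 kb of Tap1, 12 tested genes had line means of the maternal share from 0.433 to 0.955 (Abl.2), 0.480 to 0.941 (Abl.3) and 0.363 to 0.985 (Abl.4), whereas Tap1, Tap2, Psmb8 and Psmb9 between them ranged only from 0.450 to 0.576. H2-DMb1, a class II loading gene before Psmb9, had mean shares of 0.708, 0.480 and 0.759 for Abl.2, Abl.3 and Abl.4, lower in Abl.3 where the median of the chromosome was higher. H2-DMb1 was at low levels, with means of 2.41, 4.77 and 2.16 TPM in these lines, and no test of its shares is given here. Vps52 and Ring1, on either side of H2-K1, had line means of 0.614 and 0.592 for Abl.2, 0.659 and 0.683 for Abl.3, and 0.620 and 0.581 for Abl.4.

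In the authors' deposited table of maternal fractions the intervals lay clear of 0.5 for 4 of the 9 genes in Abl.2, 4 in Abl.3 and 6 of those in Abl.4. In that deposited table the H2-D1 fractions were 0.62, 0.69 and 0.62, and the Tapbp intervals included 0.5 in every line, for example 0.45 to 0.51 in Abl.2. The Psmb9 intervals in that deposited table reached 0.5 in Abl.2 (0.46 to 0.50) and Abl.3 (0.50 to 0.54) and lay below it in Abl.4 (0.43 to 0.47).

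Among regulators of the pathway, 10 of 21 tested genes were higher and 1 lower in Abl.2 than in Abl.3 (25.9% and 14.0% of all genes). Irf1, an interferon-induced activator of class I genes, was at 576 ± 0.23 TPM for Abl.2, 258 ± 16 for Abl.3 and 227 ± 13 for Abl.4 (SD, n = 2), higher in Abl.2 than in Abl.3 (log2 1.16, SE 0.079, limma adjusted p = 0.00012) and than in Abl.4 (1.34, SE 0.079, 6.9e-05). Stat2, a signal transducer of type I interferon, was also higher in Abl.2 than in Abl.3 (log2 1.01, SE 0.10, limma adjusted p = 0.00065). In Abl.2 against Abl.4, 4 regulators were higher and 4 lower (15.0% and 18.4% of all genes). In Abl.3 against Abl.4 none of the 21 was higher and 7 were lower (11.3% and 26.8% of all genes). Jak1, a kinase of interferon receptors, was at 236 ± 2.1, 125 ± 0.35 and 270 ± 14 TPM in Abl.2, Abl.3 and Abl.4, lowest in Abl.3 as Nlrc5 was (Abl.3 against Abl.4 log2 -1.10, SE 0.071, limma adjusted p = 0.00012).

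The constitutive proteasome core showed another order. None of its 14 genes was higher and 1 was lower in Abl.2 than in Abl.3, while 7 of 14 were higher and none lower both in Abl.2 and in Abl.3 against Abl.4. Of all genes, 25.9% were higher and 14.0% lower in Abl.2 against Abl.3, 15.0% and 18.4% in Abl.2 against Abl.4, and 11.3% and 26.8% in Abl.3 against Abl.4. The median log2 difference of the 14 was -0.05 in Abl.2 against Abl.3, 0.23 in Abl.2 against Abl.4 and 0.25 in Abl.3 against Abl.4. Of 10 other processing and loading genes, 3 were higher and 1 lower in Abl.2 against Abl.3, 4 higher and none lower in Abl.2 against Abl.4, and 2 higher and 2 lower in Abl.3 against Abl.4. The counts for Abl.2 against Abl.3 are near the shares of all genes.
Of 18 other class I and class I-like heavy chains, 11 reached a mean of 1 TPM. In Abl.2 against Abl.3 2 of these were higher and 1 lower, in Abl.2 against Abl.4 1 and 4, and in Abl.3 against Abl.4 none and 2, where 25.9% and 14.0%, 15.0% and 18.4%, and 11.3% and 26.8% of all genes passed. Hfe, an iron-regulating class I-like chain, was higher in Abl.2 than in Abl.4 (8.01 ± 0.057 and 3.53 ± 0.74 TPM, log2 1.00, SE 0.21, limma adjusted p = 0.014).

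Some MHC class II genes had far larger differences between the lines than any of the 9 class I genes. Of 10 tested, 2 were higher and 6 lower in Abl.2 in each of the comparisons with Abl.3 and Abl.4, and 4 were higher and 4 lower in Abl.3 against Abl.4. The shares lower in Abl.2 over all genes were 14.0% and 18.4%, and those higher 25.9% and 15.0%, while in Abl.3 against Abl.4 11.3% were higher and 26.8% lower. H2-Ab1, a class II beta chain, was at 0.54 ± 0.24 TPM for Abl.2, 147 ± 18 for Abl.3 and 245 ± 19 for Abl.4 (SD, n = 2). Its log2 difference was -6.59 in Abl.2 against Abl.3 and -7.32 in Abl.2 against Abl.4 (SE 0.14, limma adjusted p of 1.8e-06 and 1.5e-06). H2-Aa, its partner chain, and H2-Eb1 were also lower in Abl.2 in both comparisons, with log2 differences from -3.85 to -2.58. In Abl.2 they were at 0.23 ± 0.33 and 0.06 ± 0.085 TPM. With levels this near 0, the log2(TPM + 1) differences of H2-Ab1, H2-Aa, H2-Eb1 and, below, Ciita are smaller than the ratios of TPM. Ciita, the class II activator of the family to which Nlrc5 belongs, was at 0.10 ± 0.028, 1.08 ± 0.32 and 2.42 ± 0.21 TPM, so that Abl.2 held little Ciita beside an intermediate level of Nlrc5 (Abl.2 against Abl.4 log2 -1.63, SE 0.20, limma adjusted p = 0.0014). Lyz2 was the only one of 6 myeloid markers at 1 TPM or more in every library, and the summed myeloid markers stood at 159 to 193 TPM in Abl.2, 75.0 to 97.2 in Abl.3 and 77.9 to 89.4 in Abl.4, with Cd14 and Adgre1 at 0. Over the libraries Lyz2 itself ran from 70.8 to 193 TPM and Itgam from 0.35 to 6.89, so these sums are mostly Lyz2. Summed T lineage markers were at 1.25 to 2.41 TPM, and the part of other cells in the class I levels was not tested.

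Across the 6 libraries, likeness to the profile of a gene was measured as the Euclidean distance between log2(TPM + 1) values centred on their mean, over 10860 genes. Nearest to Nlrc5 were P4ha1 (distance 0.091), Rab3a (0.098) and Tmem131 (0.109), against a median of 1.08. Nearest to Tap1 were Ppp1r37 (0.063), Map4k1 (0.067) and Blvra (0.082), against a median of 0.763. Nearest to H2-K1 were Vps37c (0.054) and Pelp1 (0.059), against a median of 0.680. Within the class I set the closest pairs were Psmb8 with Psmb9 (0.24), B2m with Nlrc5 (0.243) and Tap1 with Tap2 (0.261), while Nlrc5 and Psmb9 were the furthest apart (1.30). These distances describe TPM in 6 libraries from 3 clones and carry no test, and summed allelic counts do not put B2m and H2-K1 lowest in Abl.3 as TPM does.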

How the data were processed

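Abundance values are TPM per gene and library, made by the authors with DESeq2 per the file headers. Maternal and paternal allelic counts at SNP positions are raw counts as deposited by the authors. The authors' table of maternal fractions averages replicates, with intervals by a published method, per the file headers. The submitters' processing notes name STAR 2.5.4a, SAMtools, GATK and DESeq2 and the builds GRCm38, GRCh37 and mm10 with no role. SMART-seq v4 libraries were used, per the labels' protocols.

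Here log2(TPM + 1) of 11003 genes averaging 1 TPM or more was fitted with limma 3.58.1 (trend) over 6 libraries. Allele counts of 8702 genes with at least 20 counts in every library were fitted with edgeR 4.0.16 (quasi-likelihood), with a library intercept and an allele effect per line. P-values were adjusted by Benjamini-Hochberg. Both fits were tested on simulated data. Alternatives were another pseudocount (0.1), no filter, quantile normalisation, summed allelic counts, count minimums of 10 and 50, DESeq2 1.42.0, a null at library allele totals, a replicate block and leaving out each library. Total counts per library limit precision to the Wilson intervals at best. The genes, lists and tests were chosen with earlier results of these data known. All 9 genes are named. From each list, at most the 4 largest called changes of log2 1 or more per pair are named, and the constitutive partners of the immunoproteasome, the paralogs sharing sequence and the nearest neighbours were named for position or sequence. The parental strain of each allele was not used here. One gene that the rule on nearest profiles names is not reported here.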

Additional observations from a re-analysis of the deposited data

Results flagged for a closer look

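Of 27 tested differences in allele ratio between lines, 12 passed when the difference itself was tested with edgeR (adjusted p below 0.05). Of all genes 28.4%, 22.3% and 16.5% passed in Abl.2 against Abl.3, Abl.2 against Abl.4 and Abl.3 against Abl.4. Of the other tested chromosome 17 genes 27.2%, 11.3% and 24.2% passed in that order. In Abl.2 against Abl.3 the log2 differences were -0.388 for H2-D1, -0.315 for Tapbp, -0.28 for Psmb8 and -0.226 for Psmb9. In Abl.3 against Abl.4 they were 0.426 for H2-D1, 0.406 for Psmb9, 0.342 for Tapbp, 0.323 for Psmb8, 0.167 for H2-K1 and -0.328 for Nlrc5. The H2-K1 difference was lost without Abl.3 replicate 1 (adjusted p = 0.071), and that of Nlrc5 whichever library was left out, with DESeq2 and with a replicate block. In Abl.2 against Abl.4 they were -0.328 for Tap2 and 0.179 for Psmb9, the latter lost without Abl.2 replicate 2 (0.142, adjusted p = 0.12) or Abl.4 replicate 2 (0.149, 0.066). The chromosome 17 genes among them moved beside a chromosome median of -0.29 in Abl.2 against Abl.3 and 0.28 in Abl.3 against Abl.4, and its part was not tested. H2-D1 had an adjusted p of 5.3e-06 and 6.9e-06 and each Abl.3 library above each library of the other lines.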

How the results depend on the processing

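Each library is a technical preparation of 1 clone, so the tests carry few degrees of freedom, and Nlrc5, with 1714 to 5097 allelic counts per library, had the least depth. Summed allelic counts turned the direction of 8 of 27 abundance differences: in Abl.2 against Abl.3 H2-K1 (-0.394), H2-D1 (-0.481) and B2m (-0.438), in Abl.2 against Abl.4 H2-K1 (-0.334) and Tap2 (0.0153), and in Abl.3 against Abl.4 H2-K1 (0.0595), H2-D1 (0.216) and B2m (0.183). The cause was not tested. Of these, the 3 in Abl.2 against Abl.3 and H2-K1 in Abl.2 against Abl.4 (adjusted p = 0.026) passed on summed counts, and the call of B2m in Abl.3 against Abl.4 was ended (0.39). They also ended the call of Tap1 in Abl.2 against Abl.3 (0.221) and called Psmb8 there (-0.435) and in Abl.3 against Abl.4 (0.243). Quantile normalisation, which moves the median of all genes from 0.10 to -0.003 in Abl.2 against Abl.3 and from -0.15 to 0.03 in Abl.3 against Abl.4, turned Psmb8 in Abl.3 against Abl.4 (-0.0277), and the share of called genes that were higher in the first line went from 65.0% to 51.4% and from 29.8% to 52.0%. A null at the library allele totals turned B2m (-0.0899) and Psmb8 (-0.108, adjusted p = 0.029) in Abl.2. The pseudocount of 0.1 and allele count minimums of 10 and 50 changed no call of the 9 genes. No filter on low values ended the calls of H2-K1 (adjusted p = 0.081) and Tap1 (0.077) in Abl.2 against Abl.3. DESeq2, run on allele counts, changed only that of Nlrc5 in Abl.3 against Abl.4.

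With each library left out in turn, the number of the 9 genes called ranged from 4 to 7 in abundance for Abl.2 against Abl.3, from 0 to 3 for Abl.2 against Abl.4, where 0 was reached without Abl.2 replicate 1, and from 3 to 4 for Abl.3 against Abl.4. Over all genes these counts were 2529 to 4565, 2040 to 3269 and 2336 to 3659, against 4382, 3682 and 4194 with all libraries. For the allelic difference of Abl.2 against Abl.4, Psmb9 was lost without Abl.2 replicate 2 (0.142) or Abl.4 replicate 2 (0.149). H2-K1 was gained there without Abl.4 replicate 1 (0.117). Values of uncalled differences that turned were, over the libraries left out, -0.0852 to 0.181 for H2-D1 in Abl.2 against Abl.3, -0.131 to 0.0384 for Tap2 in Abl.2 against Abl.4 and -0.00188 to 0.212 for Psmb8 in Abl.3 against Abl.4. Allele ratios that turned were -0.00174 to 0.059 for B2m and -0.0161 to 0.0367 for Psmb8 in Abl.2, and -0.143 to 0.0458 for B2m in Abl.4. Their differences turned for B2m in Abl.2 against Abl.4 (-0.0167 to 0.172) and in Abl.3 against Abl.4 (-0.113 to 0.0763).

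By the labels, libraries with the same replicate number share only that number, and each comparison holds 2 such pairs. Over 11003 genes, the difference of replicate 1 from replicate 2 in a line correlated with that in another line at 0.10 to 0.19. With a replicate block 8, 2 and 7 of the 9 genes passed in abundance in Abl.2 against Abl.3, Abl.2 against Abl.4 and Abl.3 against Abl.4 (7, 2 and 5 without it), over all genes 5213, 4608 and 5184. The calls gained with the block were Psmb8 in Abl.2 against Abl.3 (adjusted p = 0.033) and H2-K1 (0.011) and H2-D1 (0.031) in Abl.3 against Abl.4. The block ended the allelic call of Nlrc5 in Abl.3 against Abl.4 (adjusted p = 0.063).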
